A study of Mus musculus with 4 samples.

Results

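The genes described here are *Lcn2*, *Pigr*, *Slpi*, *Wfdc2*, *Lrg1*, *Reg3g*, *Hp*, *Saa1*, *Saa3* and *Lbp*, which encode proteins of mucosal defense and of the acute phase. They were chosen by name, with earlier results of these data known, so that every comparison below is a description and carries no test. All 10 were found once each among the 52636 genes of the deposited table, of which 32271 had at least 1 read in any cell. Luminal cells of the mouse mammary gland were enriched, sorted and profiled by droplet single-cell RNA sequencing that counts unique molecular identifiers (UMIs) at the 3′ end of transcripts. Both groups were C57BL/6N mice at 6 weeks of age that carried MMTV-Cre. The control group was ErbB3+/+;MMTV-Cre (WT), and the mutant group was ErbB3V943R/V943R;MMTV-Cre, in which the ErbB3 receptor carries the V943R substitution. Glands of 3 mice were pooled for each genotype, and each pool was sequenced as 2 libraries, called A and B here. A genotype is therefore 1 pool, and the spread between its libraries holds no difference between animals. MMTV-Cre acts mainly in mammary epithelium, and a cell that escaped recombination keeps wild-type *Erbb3*.

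The libraries held 6849 to 9627 cells with a median of 3154 to 4027 UMIs per cell, and the deposited cell types were luminal progenitor (LP, clusters 1 and 2), luminal intermediate (LI, cluster 3), mature luminal (ML, clusters 4 to 11) and rare cells (clusters 12 and 13). *Kit*, an LP marker, was 1.22% as high in ML as in LP cells of the WT, and *Prlr*, an ML marker, was 12.3% as high in LP as in ML cells, the order that the class names give. Of the luminal classes LI cells had the highest median depth, at 5620 UMIs in WT and 6849.5 in mutant cells, and in cluster 3 48.9% of cells had a doublet score in the top 6%, against at most 9.03% in any other cluster. *Erbb3* was read at 60.9 and 63.3 CPM (UMIs of a gene per 1000000 UMIs of the same cells) in the WT libraries and at 29.8 and 30.8 CPM in the mutant libraries. The study reports a smaller decrease of *Erbb3* mRNA in the mutant. Per its methods, transcripts of the allele before recombination end in a human growth hormone sequence, and the part of this in the *Erbb3* level was not tested. Of 31923 distinct cell barcodes, 511 occurred in 2 or more libraries. Of the other cell types that make these proteins, neutrophils left few transcripts in the libraries. *S100a9* and *Retnlg* had 0 UMIs, and 9 neutrophil genes, mostly through *Ly6g*, summed to 0.51 to 4.76 CPM in LP, LI and ML cells, with 5 to 8 of the 9 at 0 in each library. Of 4 liver genes *Alb* had 2 UMIs, *Apob* 0, *Ttr* 10 and *Apoa1* 85, and they summed to 0.27 to 1.59 CPM in LP, LI and ML cells.

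Epithelia that line ducts secrete proteins that bind, starve or lyse microbes, and the mammary gland adds many of them to milk. The acute-phase response is a rise of plasma proteins, most of them made by the liver, that is driven by interleukin-6 through STAT3, by interleukin-1 and tumor necrosis factor through NF-κB, and by C/EBP factors. The same circuits act locally in epithelial cells. Siderophore binding by lipocalin-2 (*Lcn2*), immunoglobulin transport by the polymeric immunoglobulin receptor (*Pigr*), protease inhibition by *Slpi*, which like *Wfdc2* has WAP domains, and killing of Gram-positive bacteria by the C-type lectin *Reg3g* belong to the mucosal arm. Haptoglobin (*Hp*), which binds hemoglobin, the serum amyloids *Saa1* and *Saa3*, the lipopolysaccharide-binding protein *Lbp* and the leucine-rich glycoprotein *Lrg1*, a modulator of transforming growth factor β signaling in endothelium, belong to the acute phase.

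Summed over all cells, *Wfdc2* gave 373875 UMIs, *Lcn2* 84920, *Hp* 54819 and *Lrg1* 10937. *Slpi* followed with 1364 UMIs, *Lbp* with 695 and *Reg3g* with 640, whereas *Saa1* had 117, *Pigr* 99 and *Saa3* only 2. Because the assay counts transcript ends, these totals do not scale with gene length. The genes split into those of progenitors and those of mature cells. A gene was called higher in a class when its CPM was at least 2-fold higher in each of the 4 libraries and the class held at least 50 UMIs. Of the 9 genes tested, 4 (*Lcn2*, *Lrg1*, *Lbp* and *Pigr*) were higher in LP than in ML cells, where 9.87% of all 17024 genes tested were, and 3 (*Wfdc2*, *Hp* and *Reg3g*) were higher in ML cells, where 6.86% of all genes were. *Slpi* and *Saa1* met neither criterion. The *Pigr* call was lost when mutant library A or B was left out.

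**Figure D1:**
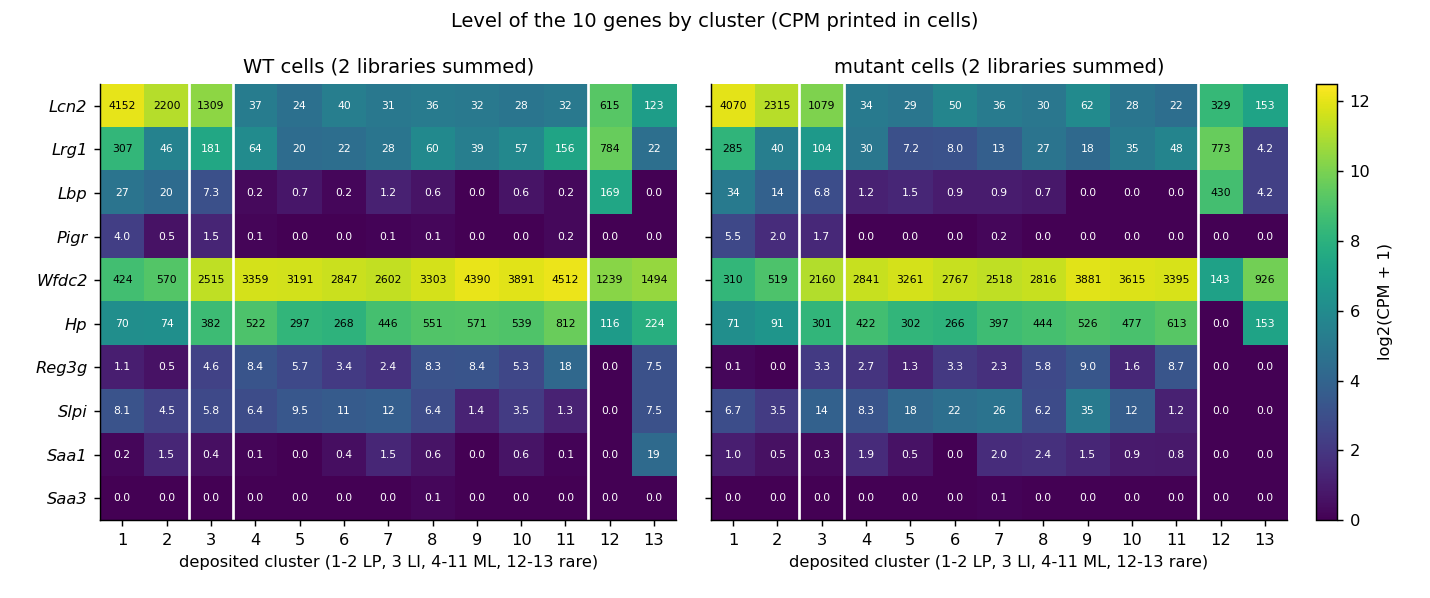
Levels of the 10 genes in the 13 deposited clusters, WT cells in one panel and mutant cells in the other. Color is log2(CPM + 1) and the printed numbers are CPM. *Lcn2* is highest in cluster 1 (4152 CPM in WT, 4070 in mutant), *Wfdc2* is highest in ML clusters (4512 CPM in cluster 11 of the WT) and *Lrg1* is highest in cluster 12 (784 and 773 CPM).

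The promoters of the genes were searched for motifs of the factors that drive the acute phase, and the stretches that held a match before the start are shown to set them beside the levels. RefSeq windows of the GRCm38.p6 build, from 250 bases before to 50 after the start, were found for 8 of the 10 genes, not for *Lbp* and *Hp*. The C/EBP motif TTGCNNAA, on either strand, was found in 4 of the 8, *Lcn2*, *Slpi*, *Saa1* and *Saa3*, and in 12.2% of 27025 genes. The stretches are shown on the minus strand, the strand of each gene, 5′ to 3′, with the motif in capitals. They are from chr2:32387740-32387989 for *Lcn2*, the 250 bases before its start, and from chr2:164356725-164356757 for *Slpi*, chr7:46743139-46743178 for *Saa1* and chr7:46715752-46715791 for *Saa3*. The starts are those of RefSeq transcripts and can differ from the gene bounds given for each gene, which are those of GENCODE. The *Lcn2* and *Slpi* stretches lie within the GENCODE bounds of these genes.
Lcn2: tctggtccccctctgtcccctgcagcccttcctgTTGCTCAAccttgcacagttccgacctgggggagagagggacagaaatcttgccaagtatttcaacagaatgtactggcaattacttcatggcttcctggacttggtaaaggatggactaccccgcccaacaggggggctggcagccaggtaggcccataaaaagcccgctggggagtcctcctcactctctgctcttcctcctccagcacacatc
Slpi: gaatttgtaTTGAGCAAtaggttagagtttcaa
Saa1: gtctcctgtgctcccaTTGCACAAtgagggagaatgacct
Saa3: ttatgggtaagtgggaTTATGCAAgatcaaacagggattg
The match begins 216 bases before the start in *Lcn2*, 241 in *Slpi*, 182 in *Saa1* and 99 in *Saa3*. Of these genes *Lcn2* was called higher in LP cells, *Slpi* and *Saa1* in neither class, and *Saa3* had 2 UMIs. The NF-κB motif was found in *Reg3g* alone, 123 bases before its start at chr6:78468972-78469013 (minus strand), and in 9.55% of all genes, and the STAT motif TTCNNNGAA in *Pigr* alone after its start and likewise in 9.55%. These 6 genes had 1 match each, so that no motifs overlapped, and the windows of *Wfdc2* and *Lrg1* held none.
Reg3g: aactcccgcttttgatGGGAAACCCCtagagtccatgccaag
A match is a description of letters in the window and not of a bound site.

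*Lcn2* (ENSMUSG00000026822, GRCm38 chr2:32384633-32388252, minus strand) was the most abundant of the 10 genes in LP cells. Its level there was 3535 and 3844 CPM in WT libraries A and B and 3617 and 3702 CPM in mutant libraries A and B. The mutant values lay between the WT values. The log2 ratio of mutant to WT was −0.01 with an exact 95% interval of −0.04 to 0.01, an interval that like all those below covers counting error only. In ML cells *Lcn2* stood at 33.4 and 31.4 CPM in WT and at 38.7 and 29.9 CPM in mutant libraries, and the genotypes overlapped. The ML level was 0.87% of the LP level in WT cells, close to 0.79% for *Csn3* and 0.82% for *Ltf*, milk protein genes of the LP class. A UMI of *Lcn2* was found in 98.2% of WT and 97.9% of mutant LP cells. The ML shares were 10.6% and 12.2%. Cluster 13, the immune cluster, gave 14.5% and 16%. Its median depth was 1869 UMIs, beside 3508 in WT and 4069.5 in mutant ML cells. Its cells also held the epithelial transcripts *Krt18* at 3435 CPM and *Epcam* at 662 CPM, and the source of these was not tested. The part of free RNA in the ML share was not tested. When every cell was thinned to an equal number of UMIs the ML shares were 3.10% and 3.06%.

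Within LP cells *Lcn2* was higher in cluster 1 than in the cycling cluster 2, with 3970 against 2232 CPM in WT library A, 4310 against 2168 in WT library B, 4045 against 2216 in mutant library A and 4091 against 2399 in mutant library B. All 4 libraries showed the same order. The median cluster 1 cell held 4 UMIs of *Lcn2* after thinning in each library. In LI cells the level was 1239 and 1380 CPM in WT and 1060 and 1100 CPM in mutant libraries. The mutant libraries were both below the WT libraries there, by a log2 ratio of −0.28 (−0.32 to −0.24), which was under the 1.5-fold size used for a call. Without the cells of top doublet score this ratio was −0.46. The LI level was 35.4% of the LP level in WT and 29.5% in mutant cells.

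*Lrg1* (ENSMUSG00000037095, chr17:56119678-56122001, minus strand) was also an LP gene, but its ML level was 25.4% of the LP level in WT and 9.68% in mutant cells. LP cells held 239 and 253 CPM in WT and 222 and 234 CPM in mutant libraries, and the log2 ratio of the genotypes was −0.11 (−0.20 to −0.02). A UMI was seen in 27.4% of WT and 24.6% of mutant LP cells. Within LP cells the gene was concentrated in cluster 1, where it reached 307 CPM in WT and 285 CPM in mutant cells, against 46.3 and 40.3 CPM in cluster 2. This gap between the LP clusters was wider than that of *Lcn2*, with a log2 ratio of 2.73 in WT and 2.82 in mutant cells for *Lrg1* and of 0.92 and 0.81 for *Lcn2*.

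*Lbp* (ENSMUSG00000016024, chr2:158306493-158332852, plus strand) and *Pigr* (ENSMUSG00000026417, chr1:130826684-130852249, plus strand) were LP genes of low level. *Lbp* had 23.5 and 26.3 CPM in WT and 25.6 and 33.2 CPM in mutant LP libraries, with a log2 ratio of 0.25 (−0.02 to 0.52) that overlapped 0. It was found in 6.16% of WT and 7.65% of mutant LP cells, and in 0.218% and 0.323% of ML cells. *Pigr* had 2.97 and 3.35 CPM in WT and 4.81 and 4.65 CPM in mutant LP libraries. These rest on 27 and 41 UMIs, under the 50 UMIs that the comparison of genotypes below requires in the higher genotype. Both genotypes together held 68 UMIs, which met the minimum of the class call.

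**Figure D2:**
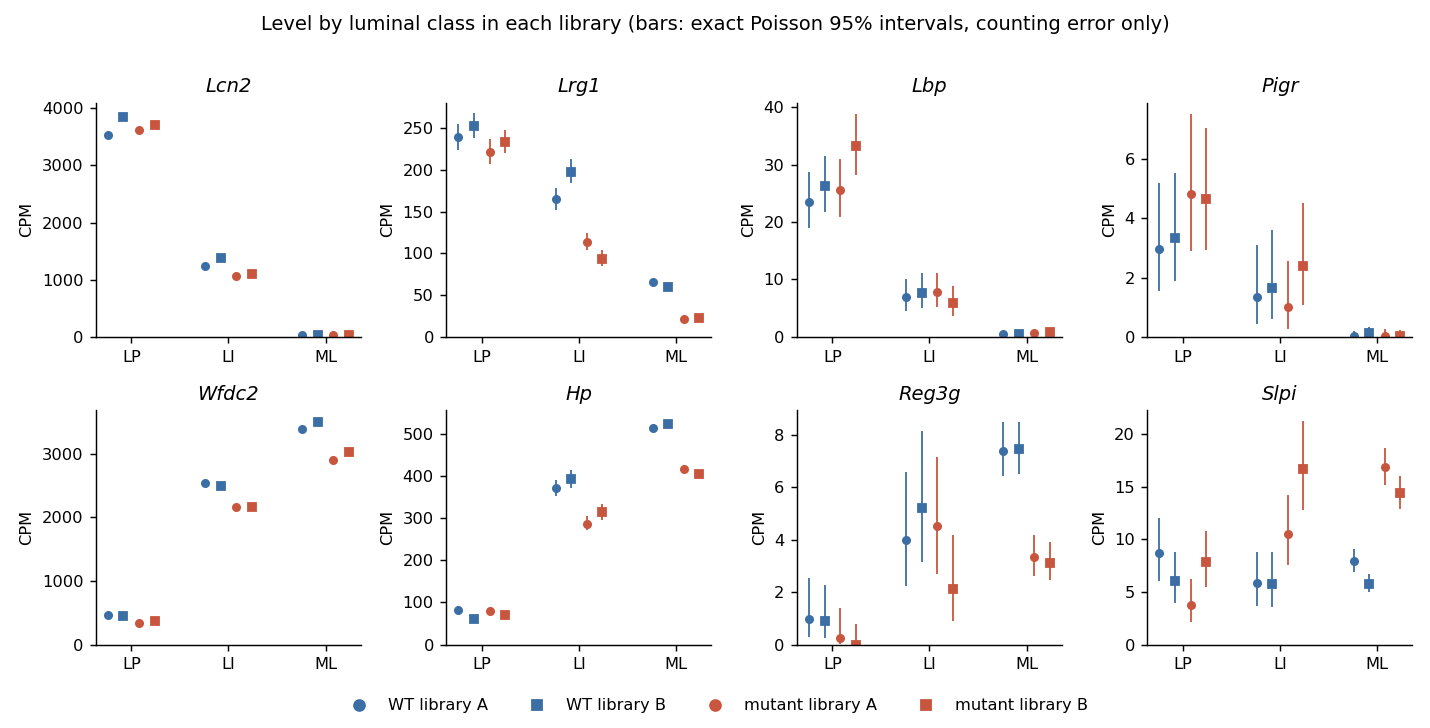
CPM of 8 genes in LP, LI and ML cells of each library, on linear axes with a scale for each gene and exact 95% Poisson intervals as bars. *Lcn2*, *Lrg1* and *Lbp* decline from LP over LI to ML cells (*Lcn2* from 3535 to 33.4 CPM in WT library A), and *Wfdc2* and *Hp* rise.

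In cluster 1, the larger LP cluster, *Lrg1*, *Lbp* and *Wfdc2* differed between cells with much and with little *Lcn2*. Cluster 1 cells were thinned to an equal number of UMIs and ranked by *Lcn2* within each library, and the 25% of cells with the most *Lcn2* were set beside the 25% with the least. *Lrg1* was read at 571 against 159 CPM of thinned UMIs in WT library A, 515 against 109 in WT library B, 520 against 154 in mutant library A and 579 against 167 in mutant library B. *Lrg1* was thus higher in *Lcn2*-rich cells of every library. *Lbp* followed in the same direction, with 42.6 against 18.3, 44.1 against 23.6, 66.7 against 33.4 and 54.5 against 36.4 CPM in the same order of libraries. These *Lbp* levels rest on few UMIs, 14 and 6, 15 and 8, 20 and 10, and 18 and 12. *Wfdc2* ran the other way, with 173 against 415, 212 against 416, 103 against 227 and 170 against 364 CPM. The ML marker *Prlr* ran this way too, with 137 against 213, 174 against 218, 127 against 211 and 170 against 242 CPM. The part of free RNA and of doublets in these differences was not tested. *Hp* had no common direction, with 91.2 against 76.2, 67.6 against 47.2, 107 against 63.5 and 39.4 against 60.6 CPM. *Csn3*, which encodes κ-casein, was higher in the *Lcn2*-rich cells of all 4 libraries (3164 against 1424 CPM in WT library A), whereas *Kit*, the receptor that marks progenitors, was 243 against 238 CPM in WT library A and 277 against 301 CPM in WT library B. Cells of one library share their source and are no replicates.

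**Figure D3:**
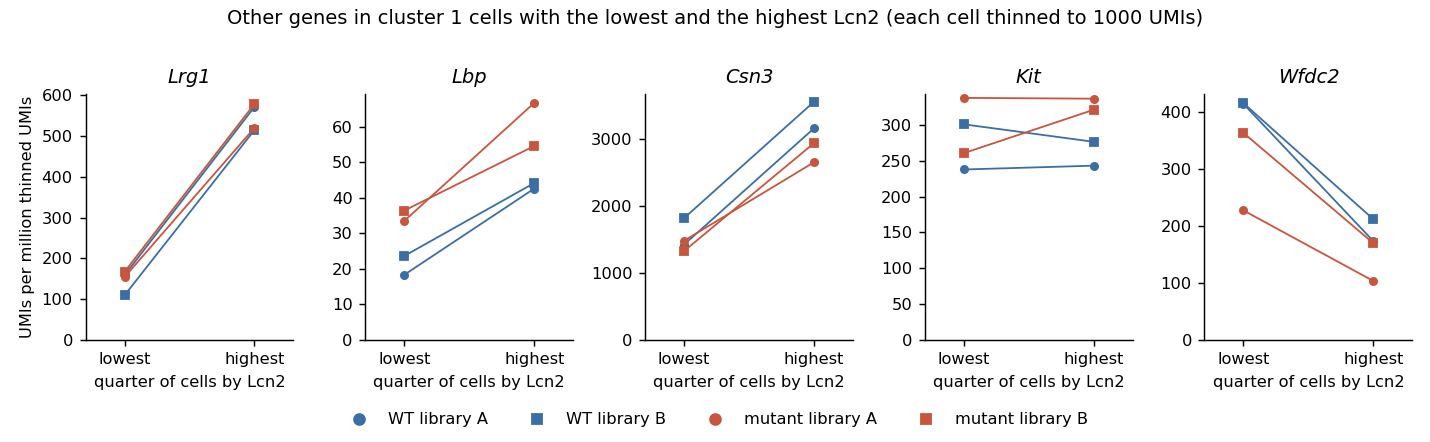
*Lrg1*, *Lbp*, *Csn3*, *Kit* and *Wfdc2* in the 25% of cluster 1 cells with the least and the 25% with the most *Lcn2* in each library, in CPM of thinned UMIs. Lines join the values of a library. *Lrg1* (159 to 571 CPM in WT library A), *Lbp* and *Csn3* rise in all 4 libraries, *Wfdc2* declines in all 4, and *Kit* has no common direction.

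*Wfdc2* (ENSMUSG00000017723, chr2:164562413-164568510, plus strand) and *Hp* (ENSMUSG00000031722, chr8:109575128-109579172, minus strand) were the abundant ML genes. *Wfdc2* was read at 3383 and 3496 CPM in WT and at 2904 and 3017 CPM in mutant ML libraries. Both mutant libraries were below both WT libraries, by a log2 ratio of −0.22 (−0.23 to −0.21). In LP cells the level was 465 and 452 CPM in WT and 336 and 376 CPM in mutant libraries, a log2 ratio of −0.36 (−0.42 to −0.29). *Wfdc2* was likewise lower in mutant LI cells, at 2163 and 2157 CPM beside 2535 and 2494 CPM in WT libraries. None of these differences reached 1.5-fold. A *Wfdc2* UMI was present in 99.2% of WT ML cells and 36.1% of WT LP cells. In cluster 13 the share was 42.2% and the level 1228 CPM over both genotypes, above the 366 CPM of cluster 1.

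*Hp* stood at 515 and 524 CPM in WT and at 418 and 405 CPM in mutant ML libraries. The groups did not overlap, and the log2 ratio was −0.34 (−0.36 to −0.31). Without cluster 11, which had the highest *Hp* level, the ratio was −0.21. Both mutant libraries were below both WT libraries in 5 of the 8 ML clusters, and in 3 the libraries overlapped. In LP cells *Hp* had 82.2 and 60.9 CPM in WT and 80.5 and 71.1 CPM in mutant libraries, which overlapped. The share of cells with an *Hp* UMI was 53.9% in WT ML cells and 11.2% in WT LP cells, beside 21.7% in WT cells of cluster 13. LI cells held *Wfdc2* at 73.1% and *Hp* at 73.5% of the ML level in the WT, and at 72.9% and 73.2% in the mutant.

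The pattern over clusters was also compared between genes. Across 26 points, the 13 clusters in each genotype, the levels of *Wfdc2* and *Hp* ran together with a Pearson correlation of log2(CPM + 1) of 0.90, and those of *Lcn2* and *Wfdc2* ran opposite, with −0.77. *Lcn2* and *Lbp* had a correlation of 0.76, and *Lrg1* and *Lbp* of 0.71. Of 11709 genes compared, those most like *Lcn2* were *Wfdc18* (0.992), *Barx2* (0.987) and *Csn3* (0.985). *Hp* was most like *Capsl* (0.995), *Rab27b* (0.986) and *Tox2* (0.985), and *Wfdc2* most like *Ptn* (0.983), *Tmem56* (0.980) and *Cd164* (0.972). For *Lrg1* the closest genes were *Atraid* (0.923), *Junb* (0.908) and *Tshz2* (0.903). *Lbp* was closest to *Cyr61* (0.980), *Igfbp7* (0.979) and *Rhoj* (0.967), and *Lbp* reached its highest level in cluster 12, at 169 CPM in WT and 430 CPM in mutant cells on 19 and 30 UMIs. The nearest to *Reg3g* were *Tmprss2* (0.929), *Platr17* (0.879) and *Fgg* (0.879). For *Slpi* they were *Mir7678* (0.983), whose annotation lies within *Slpi* on the same strand, so that their reads may be shared, *Tmem229a* (0.850) and *Mettl24* (0.840). The points share libraries and differ in depth, and clusters of one class are not independent.

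The genotypes were then compared in each class. A gene was called when mutant and WT CPM differed by at least 1.5-fold, both mutant libraries lay beyond both WT libraries, and the higher genotype held at least 50 UMIs. In LP cells 0 of 6 members tested were higher in the mutant, where 2.23% of all genes were, and 0 were lower, where 0.606% were. In LI cells *Slpi* was higher (1 of 6 tested, 2.83% of all genes) and *Lrg1* was lower (1 of 6, 1.03% of all genes). In ML cells 2 of 7 tested, *Slpi* and *Saa1*, were higher, where 2.86% of all genes were, and 2, *Lrg1* and *Reg3g*, were lower, where 1.57% were. The median log2 ratio of the tested members was −0.06 in LP, −0.25 in LI and −0.22 in ML cells, beside 0.02, 0.00 and 0.00 over all genes tested. Over all cells together 3 of 9, *Slpi*, *Saa1* and *Pigr*, were higher (3.23% of all genes) and *Lrg1* and *Reg3g* were lower (2 of 9, 1.17% of all genes), but these totals also follow the number of cells in each class, which was 3181 LP and 14188 ML cells in WT and 3123 LP and 9612 ML cells in mutant libraries. With each library left out in turn, the count higher over all cells was 1 to 4. Over all cells *Saa1* (43 WT and 74 mutant UMIs) and *Pigr* (43 and 56) met the minimum in the mutant alone. The same held for *Saa1* in ML cells (31 and 64) and *Slpi* in LI cells (43 and 105). These were thus tested only through the genotype where they were high, and the shares over all genes followed the same rule. A list of 6 dissociation stress genes summed to 14504 and 15085 CPM in WT and 12038 and 12681 CPM in mutant ML libraries, and to 17572 and 18346 CPM beside 14223 and 14483 CPM in LP libraries. *Hspa1b* was the only gene of this list called between genotypes in a class, and it was higher in mutant LP and LI cells. The part of the list in the differences below was not tested.

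**Figure D4:**
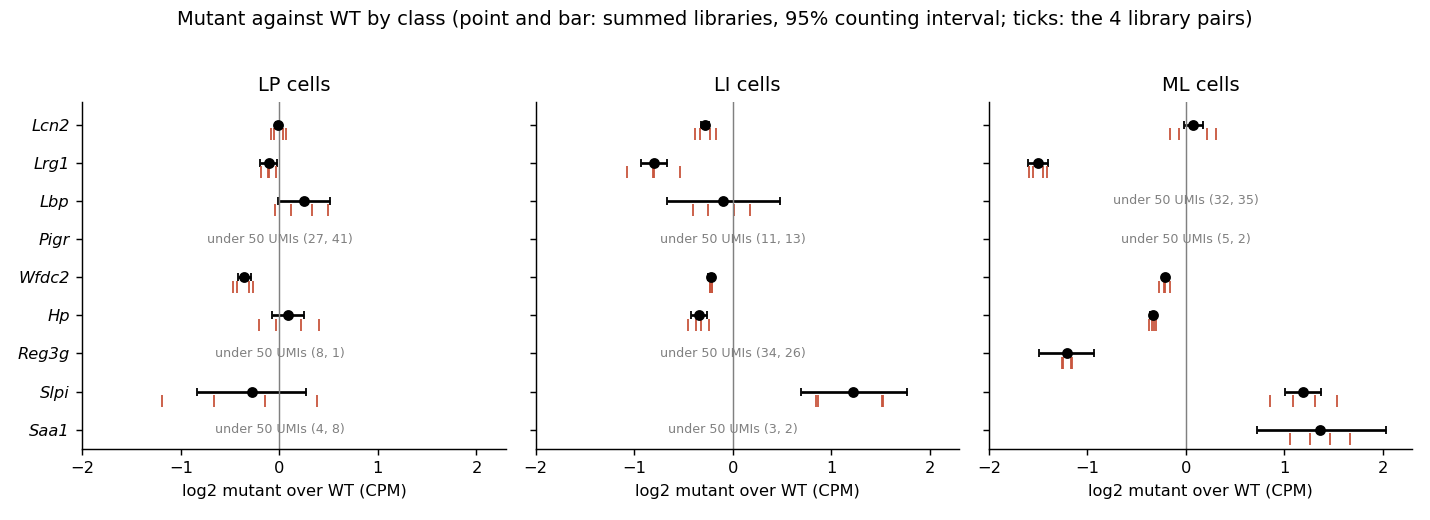
log2 ratio of mutant to WT CPM of 9 genes in LP, LI and ML cells. Points are ratios of summed counts with exact 95% intervals, ticks are the 4 pairs of a mutant and a WT library, and genes with under 50 UMIs are marked. In ML cells *Lrg1* lies at −1.50 and *Reg3g* at −1.21, *Slpi* at 1.19 and *Saa1* at 1.36, while *Lcn2* lies at 0.08.

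*Lrg1* was lower in mutant ML cells, with the largest ratio of the 7 genes tested there in size. It was read at 65.7 and 59.6 CPM in WT libraries A and B and at 21.7 and 22.4 CPM in mutant libraries A and B, on 3549 and 1009 UMIs. Each mutant library was below both WT libraries, the summed level was 2.83-fold higher in WT, and the log2 ratio of mutant to WT was −1.50 (−1.60 to −1.40), with −1.59 to −1.41 over the 4 library pairs. A UMI was seen in 14.5% and 16.2% of WT and in 7.47% and 7.59% of mutant ML cells. Immune cells of cluster 13 gave 6.02% in WT and 1.23% in mutant libraries, on only 6 and 1 UMIs. Their levels of 22.4 CPM (8.23 to 48.8) and 4.25 CPM (0.108 to 23.7) had intervals that overlapped. Some markers of other cells also differed between genotypes in ML cells, in both directions. A list of 5 fibroblast genes summed to 15.1 and 13.8 CPM in WT and 5.43 and 4.26 CPM in mutant libraries, with 0 to 1 of the 5 at 0. Only *Dcn* of this list met the count minimum in ML cells, and it was called lower. Over all cells *Dcn* was also called lower, but *Col3a1* of the same list was called higher. Of the 9 neutrophil genes, 5 to 7 were at 0 in each ML library and *Ly6g* alone met the minimum. It was called higher, at 3.57 against 1.92 CPM. *Dcn* and *Ly6g* were also both called higher in ML than in LP cells. A list of 4 endothelial genes summed to 1.29 and 0.709 CPM in WT and 1.09 and 0.674 CPM in mutant ML libraries, which overlapped. The part of these markers in the *Lrg1* result was not tested. In LI cells *Lrg1* was likewise lower in the mutant, at 114 and 93.9 CPM beside 165 and 198 CPM in WT, a log2 ratio of −0.80 (−0.93 to −0.67). In LI cells without those of top doublet score it was −1.01.

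All 8 ML clusters had *Lrg1* lower in both mutant than in both WT libraries, a pattern that 0.376% of the 15157 genes tested in ML cells shared. Cluster 11 held the highest ML level, with 160 and 153 CPM in WT and 42.7 and 52.6 CPM in mutant libraries. The level in the other ML cells was 47.1 and 41.0 CPM in WT and 20.7 and 20.6 CPM in mutant libraries. Cluster 11 had 2863 WT and 670 mutant cells. Without cluster 11 the log2 ratio was −1.09, and with the clusters weighted by their WT cell shares in both genotypes it was −1.29. *Lrg1* was 64.5 CPM in WT and 29.9 CPM in mutant cells of cluster 4, and 57.0 and 34.6 CPM in cluster 10.

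*Reg3g* (ENSMUSG00000030017, chr6:78466269-78468872, minus strand) was the other gene that was lower in mutant ML cells. The levels were 7.40 and 7.46 CPM in WT and 3.33 and 3.12 CPM in mutant libraries, on 422 and 147 UMIs. The WT libraries were nearly equal and the mutant libraries were both lower, with a log2 ratio of −1.21 (−1.49 to −0.93). It was seen in 1.85% of WT and 0.895% of mutant ML cells, beside 2 of the 83 cluster 13 cells from WT (2.41%, exact interval 0.293% to 8.43%) and 0 of the 81 from mutant libraries (up to 4.45%), and LP cells had 8 UMIs in WT and 1 in mutant libraries. In LP cells of the same WT libraries the share was 0.220%, and with thinned cells it was 0.0635% in LP and 0.578% in ML cells, so that the ML share of the WT lay above that of the LP cells. In cluster 11 *Reg3g* had 19.0 and 16.2 CPM in WT and 14.9 and 3.76 CPM in mutant libraries, the last 2 on 16 and 5 UMIs. Of the 16 UMIs of mutant library A, 11 lay in 1 cell. Outside cluster 11 the log2 ratio in ML cells was −0.90, and both mutant libraries were below both WT libraries in 5 of the 8 ML clusters.

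**Figure D5:**
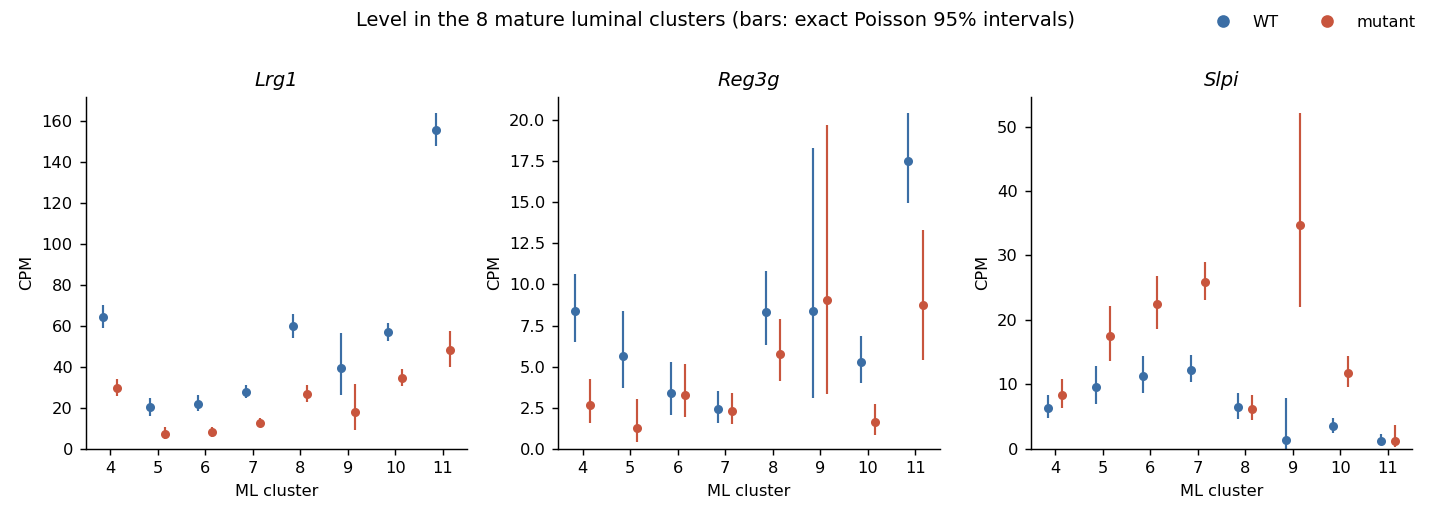
CPM of *Lrg1*, *Reg3g* and *Slpi* in ML clusters 4 to 11, WT beside mutant, summed over the libraries of a genotype, with exact 95% Poisson intervals as bars. *Lrg1* is lower in mutant cells in each cluster and highest in cluster 11 (156 CPM in WT, 48.2 in mutant). *Reg3g* is highest in cluster 11 of the WT (17.5 CPM), and *Slpi* in cluster 7 of the WT (12.3 CPM), with 25.9 CPM there in the mutant.

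*Slpi* (ENSMUSG00000017002, chr2:164354070-164389095, minus strand) was higher in mutant ML cells, at 16.9 and 14.4 CPM beside 7.96 and 5.80 CPM in WT libraries. Both mutant libraries exceeded both WT libraries, by 2.28-fold over the sums and by a log2 ratio of 1.19 (1.01 to 1.37), on 388 WT and 712 mutant UMIs. The 9 neutrophil genes summed to 2.58 and 2.40 CPM in WT and 3.15 and 4.76 CPM in mutant ML libraries, with *Ly6g* called higher as given above, and 8 macrophage genes to 3.72 and 3.68 CPM in WT and 3.56 and 4.72 CPM in mutant ML libraries. Over all cells the macrophage genes summed to 6.30 and 5.13 CPM in WT and 7.36 and 12.2 CPM in mutant libraries, with *C1qa* and *C1qb* called higher. Their part in the *Slpi* and *Saa1* results was not tested. The *Slpi* counts came from few cells. A *Slpi* UMI was present in 1.26% and 1.24% of WT and in 2.05% and 2.71% of mutant ML cells. Among the immune cells of cluster 13 it was in 2 of the 83 from WT (2.41%, exact interval 0.293% to 8.43%) and 0 of the 81 from mutant libraries (up to 4.45%), at a median depth of 1899 and 1720 UMIs beside 3508 and 4069.5 in ML cells. Of the mutant cells, 1 held 61 UMIs where the richest WT cell held 16. Without the richest cell of each library the levels were 7.44 and 5.27 CPM in WT and 14.1 and 13.2 CPM in mutant libraries. The 3 richest cells of mutant library A held 61, 47 and 41 UMIs, 149 of its 370, and those of mutant library B held 65 of 342. Without the 3 richest cells of each library, an alternative chosen after seeing the data, the levels were 6.71 and 4.66 CPM in WT and 10.1 and 11.7 CPM in mutant libraries, with a log2 ratio of 0.95. The mutant libraries stayed above the WT libraries in both cases. By cluster, *Slpi* had 12.3 CPM in WT and 25.9 CPM in mutant cells of cluster 7, and 11.5 and 21.9 CPM without the richest cell of each genotype. Cluster 10 had 3.50 and 11.8 CPM, and 2.46 and 6.68 CPM without these cells. In cluster 6 the levels were 11.2 and 22.4 CPM, and 9.63 and 11.3 CPM without them, so that 1 mutant cell carried most of that difference. Cluster 8 had 6.43 and 6.21 CPM and cluster 11 had 1.28 and 1.25 CPM. Cluster 9, the highest mutant cluster at 34.7 CPM, rests on 23 UMIs in 4 cells. Of the 8 ML clusters, 3 had both mutant libraries above both WT libraries and 5 had libraries that overlapped. In LI cells *Slpi* had 5.85 and 5.78 CPM in WT and 10.5 and 16.7 CPM in mutant libraries, a log2 ratio of 1.22 (0.69 to 1.77) on 43 and 105 UMIs. The 3 richest LI cells held 24 of the 42 UMIs of mutant library A and 47 of the 63 of mutant library B, 24 of them in 1 cell. Without mutant library B it fell under the count minimum, with 42 UMIs and a ratio of 0.86. LP cells showed no such order, with 8.67 and 6.02 CPM in WT and 3.80 and 7.82 CPM in mutant libraries. In mutant LI cells the proliferation genes *Birc5* and *Mki67* and the basal gene *Acta2* were also called higher, where 2.83% of all genes were. A list of 5 proliferation genes summed to 98.1 and 78.7 CPM in WT and 123 and 138 CPM in mutant LI libraries. The part of these genes in the LI results of *Slpi* and *Lrg1* was not tested.

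*Saa1* (ENSMUSG00000074115, chr7:46740497-46742980, minus strand) had 0.63 and 0.47 CPM in WT and 1.5 and 1.31 CPM in mutant ML libraries, on 31 and 64 UMIs. Both mutant libraries were above both WT libraries, with a log2 ratio of 1.36 (0.72 to 2.03), but the UMIs lay in 13 and 8 WT cells and in 17 and 15 mutant cells. With either mutant library left out the other held 31 or 33 UMIs, under the minimum of 50, and the ratio was 1.26 without mutant library A and 1.46 without mutant library B. Reads of *Saa1* can be split with its near-identical neighbor *Saa2*, which had 28 UMIs in all, so its level is uncertain. *Saa3* (ENSMUSG00000040026, chr7:46711998-46715700, minus strand) had 1 UMI in each genotype and is given no ratio.

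Among 37 other genes of secreted defense and acute-phase proteins, listed with earlier results known, 10 of 17 tested were higher in LP cells (9.87% of all genes), among them *Wfdc18*, *Ltf*, *Cd14* and *Cp*, and 5 were higher in ML cells (6.86% of all genes), among them *Dmbt1* and *Wfdc3*. Of 12 genes of the list that were tested between genotypes in ML cells, 3 were higher in the mutant (2.86% of all genes) and 1 was lower (1.57% of all genes). Those higher were *Wfdc3*, *Muc15* and *Wfdc12*. *Wfdc12*, another WAP domain gene, rose from 1.69 CPM in WT to 9.44 CPM in mutant ML cells on 96 and 431 UMIs, a log2 ratio of 2.48 (2.16 to 2.82). Its libraries had 2.98 and 0.506 CPM in WT and 10.5 and 8.43 CPM in mutant ML cells, and 1 cell held 36 of the 81 UMIs of WT library A and 1 held 72 of the 200 UMIs of mutant library B. *Wfdc3* rose from 94.9 to 162 CPM, and *Muc1*, a membrane mucin, declined from 5.58 to 3.50 CPM. In LP cells 2 of 12 were higher (2.23% of all genes), *Dmbt1*, a scavenger receptor of mucosal secretions, at 27.7 against 15.8 CPM and the complement gene *C3* at 12.3 against 7.28 CPM, and 0 were lower (0.606%). In LI cells 2 of 12 were higher (2.83% of all genes), *Dmbt1* at 229 against 127 CPM and *Wfdc3* at 105 against 67.3 CPM, and 0 were lower (1.03%).

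The receptors and factors that act upstream of the acute phase were taken as a list of 36 genes, of which 35 were tested between classes. Of these 8 were higher in LP (9.87% of all genes) and 5 in ML cells (6.86% of all genes). *Cebpb* and *Cebpd*, C/EBP factors of the acute phase, stood at 1066 and 818 CPM in WT LP cells and at 184 and 160 CPM in WT ML cells. Of the genes with a C/EBP match shown above, *Lcn2* had this class order and *Slpi* and *Saa1* were called in neither class, while *Lrg1* and *Pigr*, whose windows held no C/EBP match, were also called higher in LP cells. *Lbp*, called higher in LP cells as well, had no window. The part of C/EBP factors in the class order was not tested. *Socs3*, a feedback inhibitor induced by STAT3, ran the other way, with 519 CPM in LP and 1943 CPM in ML cells of the WT. In the comparison of genotypes 2 of 35 were lower in mutant LP cells (0.606% of all genes), *Tnfaip3*, an NF-κB inhibitor, at 7.03 against 12.6 CPM, and *Tlr2*, a receptor for bacterial lipoproteins, at 7.26 against 11.6 CPM, and 0 of 35 were higher (2.23% of all genes). In LI cells 0 of 32 were higher (2.83% of all genes) and 0 lower (1.03%), and in ML cells 0 of 34 were higher (2.86%) and 0 lower (1.57%).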

How the data were processed

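Single-cell RNA-seq values of 4 libraries, 2 from each genotype pool, were used. Per the submitters' processing notes, reads were handled with CASAVA 1.8 and bcl2fastq 2.20 and aligned with GSNAP 2013-10-10 to GRCm38, and per the study's methods the clusters were made with Seurat at a resolution of 0.6. The deposited values are signal values, UMIs that the authors multiplied by 1 factor per cell, so that cells sum to 3516 to 3726. Dividing each cell by its smallest nonzero value gave whole UMIs for 100% of 60853305 values within 0.02. Cluster and cell type were taken from the deposited table. Total UMIs per library were 30019745 to 38009351.

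UMIs of a gene were summed over the cells of a class or cluster and divided by all UMIs of these cells (CPM). Levels have exact Poisson intervals, ratios exact conditional binomial intervals and shares exact binomial (Clopper-Pearson) intervals at 95%, which cover counting error only. With 1 pool per genotype there was no test and no p-value, and the libraries are technical replicates of a pool. Shares were also computed with each cell thinned to 1000 UMIs (45 WT and 252 mutant cells were too shallow). Doublets were scored with scrublet in scanpy 1.11.5 and not removed. The genes and lists were chosen with earlier results of these data known. Other lists name at most 4 genes in each direction, those with the most UMIs, and the 3 most similar genes are named for members with at least 500 UMIs. Alternatives were each library left out, cells of low depth or high doublet score left out, other count minimums, folds, weights and normalizations. Python 3.11.15, numpy 2.4.6, pandas 2.3.3, scipy 1.17.1 and matplotlib 3.10.9 were used. Gene positions are from the GENCODE annotation of GRCm38, and promoter windows are from RefSeq.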

Additional observations from a re-analysis of the deposited data

Results flagged for a closer look

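*Lcn2* differed between genotypes in opposite directions in different cells, among classes and clusters with at least 50 UMIs in the higher genotype. Both mutant libraries were above both WT libraries in cluster 5, a cycling ML cluster, with a log2 ratio of 0.30 (−0.10 to 0.70, an interval that holds 0) on 105 WT and 114 mutant UMIs. Cluster 9 had the same direction with 0.94, but on 23 and 41 UMIs, under this minimum. They were below both WT libraries in LI cells (−0.28), in cluster 11 of the ML class (−0.56, on 299 and 52 UMIs) and in cluster 12 (−0.90, on 69 and 23 UMIs). In cluster 12 mutant library A held 90.1 CPM on 3 UMIs and mutant library B 548 CPM on 20, beside 679 and 571 CPM in the WT libraries, and the ratio was −0.17 without mutant library A and −2.77 without mutant library B. In cluster 5 it ranged from 0.12 without WT library A to 0.54 without WT library B. The difference between these cells was not tested. The *Lcn2* level in ML cells was 0.87% of that in LP cells in the WT.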

How the results depend on the processing

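Of 120 alternative counts of members, 10 moved by over 1.5 times, and of 176 alternative log2 ratios 14 moved by more than the spread between libraries, and 13 had a sign other than that reported, each of them a ratio that was not called (*Lcn2*, *Lrg1*, *Hp* and *Slpi* in LP, *Lbp* in LI and *Lcn2* in ML cells). With each library left out in turn, the count higher in LP cells was 3 to 4, since *Pigr* was lost without mutant library A or B, and that higher in ML cells was 3. The count lower in mutant LP cells was 0 to 1 (*Slpi*, without mutant library B, where its ratio was the lowest of all settings, at −0.94) and that higher in LP cells 0. In LI cells 0 to 1 were higher, since *Slpi* was lost without mutant library B, and 1 was lower. In ML cells 1 to 2 were higher, since *Saa1* was lost without mutant library A or B, and 2 were lower. Over all cells 1 to 4 were higher, 1 without mutant library B and 4 without WT library B, and 2 were lower. At a fold of 2 the count lower in LI cells was 0 and that lower over all cells was 1, and with a mean over cells of the CPM of each cell the latter was 1 also. With a minimum of 100 UMIs the counts higher in ML cells and over all cells were each 1. In ML cells the log2 ratio of *Lrg1* ranged from −1.57 to −1.09, of *Reg3g* from −1.51 to −0.90, of *Slpi* from 0.95 to 1.43 and of *Saa1* from 1.16 to 1.57. Leaving out cluster 11, or the 3 richest cells of each library, was chosen after seeing the data. The latter gave −1.51 for *Reg3g*, and the former gave −0.14 for *Wfdc2* and −0.21 for *Hp*. For *Wfdc2* in LP cells the ratio was −0.58 without the highest doublet scores. The cause of these moves was not tested. No paired analysis was possible because the deposited table names libraries by identifiers that are not matched to the replicate numbers of the sample titles, and no result came from a test. Depth limits *Saa1*, *Pigr* and *Saa3*, with 117, 99 and 2 UMIs in all.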

Other observations

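The highest *Lrg1* level of any cluster was in cluster 12, which has 76 cells of stromal and endothelial type. Cells with a UMI of an endothelial marker and none of a fibroblast marker numbered 54, and 40 of them carried *Lrg1*, with 136 UMIs in all and a level of 1133 CPM (951 to 1341). The 16 cells with fibroblast markers only had 0 *Lrg1* UMIs, which allows a level of up to 84.6 CPM. *Lbp* had 38 UMIs in 25 of the 54 endothelial cells, a level of 317 CPM, and 4 UMIs in the fibroblast cells. These 54 cells also held *Wfdc2* at 1017 CPM and *Lcn2* at 542 CPM, epithelial transcripts whose part in the *Lrg1* and *Lbp* levels was not tested. In the immune cluster 13, *Lrg1* was found in 6.02% of WT and 1.23% of mutant cells and *Lbp* in 0% and 1.23%. These shares rest on 6 and 1 UMIs of *Lrg1* and on 0 and 1 of *Lbp*.

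In ML cells outside cluster 11, cells were also ranked by *Hp* within each library. The 25% of cells with the most *Hp* held more *Lrg1* than the 25% with the least in all 4 libraries, with 67.2 against 31.2 CPM of thinned UMIs in WT library A, 69.4 against 37.7 in WT library B, 27.2 against 16.3 in mutant library A and 25.1 against 20.6 in mutant library B. Both mutant libraries were below both WT libraries in either set of cells. These *Lrg1* levels rest on 99 and 46, 94 and 51, 30 and 18, and 28 and 23 UMIs in the same order of libraries.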
